A study of Mus musculus with 8 samples.

Results

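The 41 genes described here encode the contractile, calcium-handling and energy proteins of skeletal muscle and the transcription factors that control muscle formation. They were chosen by name, by matching a list of mouse symbols to the 43629 Ensembl genes counted in each sample, and all 41 were found. Because the list was drawn up with the high values of Control embryos J6 and J7 and the difference between the groups already known, both are given below as a description. The samples were the left and right lower first molars of single embryos at E18.5, pooled per embryo. The Control group held 4 embryos of the genotype Jagged1 fl/fl (J3, J5, J6 and J7), and the Mutant group held 4 embryos of the genotype K14:cre; Jagged1 fl/fl (K14J26, K14J28, K14J29 and K14J30). By these genotypes all 8 embryos carried the floxed Jagged1 alleles, and only the Mutants carried the Cre. The keratin 14 promoter drives the Cre in epithelium, so that the mesenchyme of the Mutant molars kept the gene. The study's methods call the sequenced Controls WT littermates of the Mutants. Which embryos shared a litter is not given in the sources used here. Values per embryo are always given in the order J3, J5, J6 and J7 for the Controls and K14J26, K14J28, K14J29 and K14J30 for the Mutants.

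A skeletal muscle fibre is packed with sarcomeres, in which thin filaments of actin, tropomyosin and troponin slide along thick filaments of myosin, anchored at the Z disc and spanned by titin. The fibre begins to contract when the ryanodine receptor releases calcium from the sarcoplasmic reticulum, which binds troponin, and relaxes when a calcium pump returns it. Many sarcomere proteins exist as fast, slow and developmental isoforms encoded by separate genes. Fibres of the mouse pass from the embryonic myosin heavy chain Myh3 through the perinatal chain Myh8 to the adult chains, which are Myh2, Myh1 and Myh4 in fast fibres and Myh7 in slow fibres and the heart. Teeth contain no skeletal muscle, but the developing lower molars lie in a jaw to which the masticatory and tongue muscles attach.

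Between 17327224 and 29792467 reads were counted on genes per embryo, so that 3 counts correspond to between 0.0998 and 0.166 CPM (the count scaled to a common library size after TMM normalization). The TMM factor was 0.843 in K14J26 and 0.969 in K14J29, and between 1.02 and 1.04 in the other 6. The targeted gene, Jag1, had 95.2, 103, 104 and 99.8 CPM in the Controls and 33.97, 38.9, 45.9 and 57.1 CPM in the Mutants. With edgeR's quasi-likelihood test its log2 fold change was -1.19 ± 0.14 (SE), at an adjusted p of 0.00517. Markers of dental epithelium were counted in every sample, which does not exclude other tissue. The sum of 10 dental epithelium markers ran from 5061 CPM in J7 to 8439 CPM in J6 among the Controls. Among the Mutants it ran from 8891 CPM in K14J28 to 122100 CPM in K14J26.

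The muscle transcripts were high in 2 of the 8 molar samples, both of them Controls. Summed over the 41 genes, they reached 105.5, 116.8, 740.3 and 451.2 CPM in the Controls and 79.3, 117.9, 102.5 and 114.9 CPM in the Mutants. Controls J3 and J5 lay among the Mutants, while J6 was 6.28-fold and J7 3.83-fold above K14J28, the highest of the other 6. As a share of all counts this was 0.0765% in J6 (95% exact binomial interval 0.07525% to 0.07776%) and 0.0467% in J7 (0.0459% to 0.0475%), against 0.00668% to 0.0123% in the rest. All such intervals cover counting error only. In these bulk samples fewer cells of a type and less RNA per cell cannot be told apart.

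In the 6 other embryos most of the sum came from a single gene, the tropomyosin Tpm2, with 57.7% to 74.7% of the counts of the 41 genes, against 13.9% in J6 and 23.2% in J7. Without the 2 sarcomeric actins Acta1 and Actc1 and without Tpm2, the sum was 496.4 CPM in J6 and 272.5 CPM in J7 and at most 41.2 CPM elsewhere, in K14J30, so that J6 stood 12.05-fold and J7 6.62-fold above the highest of the others. At least 10 counts were found for 34 of the 41 genes in J6 and for 33 in J7, but for only 17 in J3, 25 in J5 and 18 to 27 in the Mutants. J6 and J7 were the 2 highest embryos for 33 of the 41 genes, and for 30 of the 33 that passed the count filter, where 4.90% of all 17129 genes tested had them as the 2 highest. Among the 6 others, K14J30 was the highest in 13 genes, the most of any embryo.

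**Figure D1:**
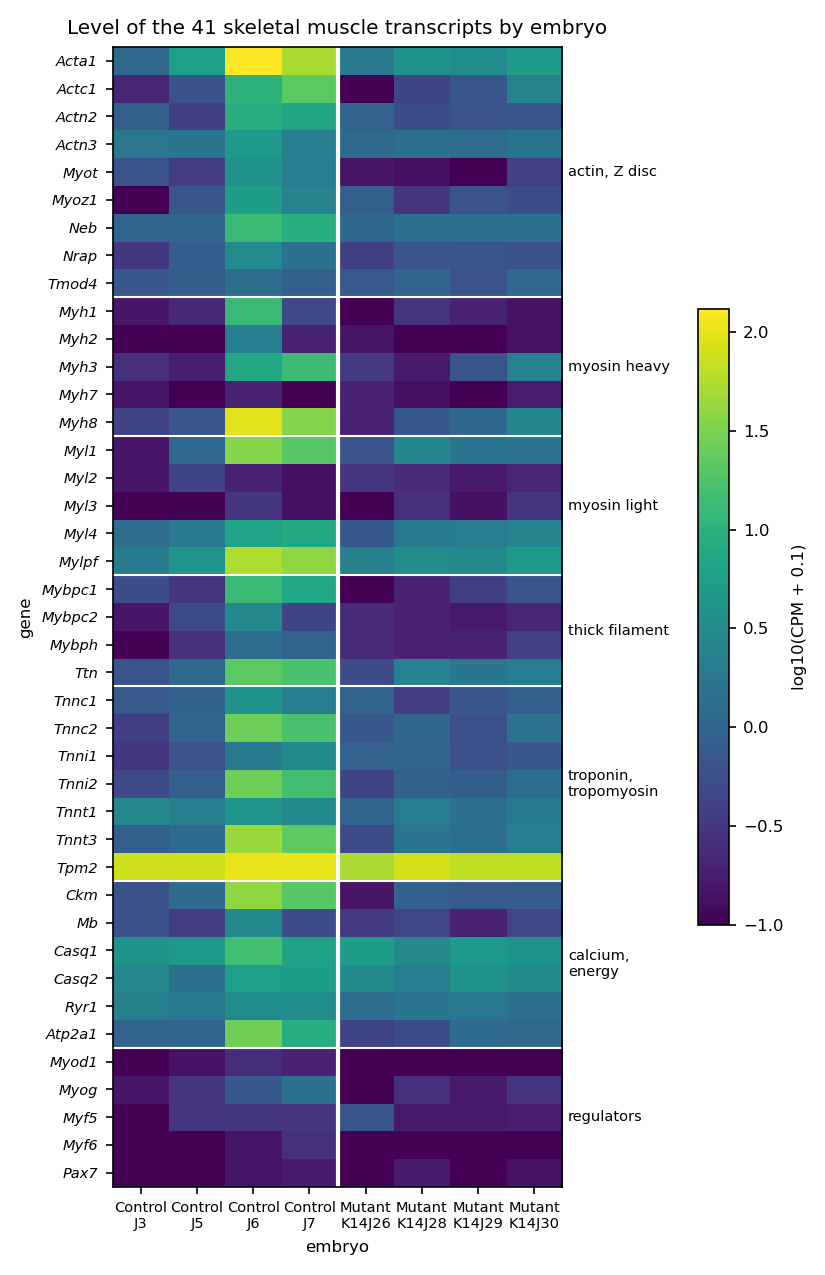
Level of each of the 41 transcripts (rows, grouped by role) in each of the 8 embryos (columns, 4 Control left and 4 Mutant right of the white line), as log10(CPM + 0.1). The columns of J6 and J7 are bright from the actins to the calcium-handling genes, J3 and J5 resemble the Mutant columns, and Tpm2 is bright throughout.

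The skeletal muscle actin gene Acta1 (ENSMUSG00000031972, chromosome 8 from 123891769 to 123894751 on GRCm38), which encodes the main thin-filament protein of mature fibres, had 1.05, 5.64, 131 and 52.7 CPM in the Controls and 1.73, 3.92, 3.15 and 5.003 CPM in the Mutants. The cardiac actin gene Actc1 (ENSMUSG00000068614, chromosome 2 from 114047282 to 114053548), which developing skeletal muscle also uses, had 0.111, 0.494, 10.2 and 21.5 CPM in the Controls and 0, 0.333, 0.589 and 2.37 in the Mutants. J6 and J7 were far above the rest in both genes, but J6 was the higher for Acta1 and J7 the higher for Actc1. The 250 bases before the RefSeq start of each gene are shown because both actins were high in J6 and J7 but differed in which of those 2 was the higher. RefSeq lists them on GRCm38.p6, and the last 12 bases of the Actc1 window were left off because an annotated exon covers them. Capitals mark CANNTG, the E-box that myogenic regulators of the MyoD family recognise.
Acta1 (chr8:123894776-123895025, minus strand): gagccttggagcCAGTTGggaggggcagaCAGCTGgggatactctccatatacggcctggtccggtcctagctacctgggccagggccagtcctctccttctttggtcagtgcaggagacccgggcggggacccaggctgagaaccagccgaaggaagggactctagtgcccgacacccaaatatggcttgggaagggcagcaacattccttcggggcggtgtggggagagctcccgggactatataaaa
Actc1 (chr2:114052888-114053125, minus strand): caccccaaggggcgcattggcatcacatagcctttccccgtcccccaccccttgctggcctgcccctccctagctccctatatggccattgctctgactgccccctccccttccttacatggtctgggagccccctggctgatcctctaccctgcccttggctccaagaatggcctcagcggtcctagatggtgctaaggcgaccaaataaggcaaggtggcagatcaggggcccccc
The Acta1 window held 2 E-boxes, 1 of them CAGCTG, and the Actc1 window none. The Actc1 window lies inside the annotated span of the gene given above, which on the minus strand begins at 114053548. Bases before that start, and outside either window, were not searched for E-boxes. Each window held 1 CArG box, a motif found in 1.40% of 27025 promoter windows of all genes and in 3 of the 33 windows available for the muscle genes (Actc1, Acta1 and Myl3).

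The Z disc and thin-filament genes followed the actins to differing extents. Neb, the giant protein that runs along the thin filament, had 0.941, 0.948, 13.1 and 8.91 CPM in the Controls and 1.009, 1.26, 1.35 and 1.40 CPM in the Mutants. Actn2, the Z disc α-actinin of all fibres, had 0.775, 0.288, 8.97 and 6.62 CPM in the Controls and 0.865, 0.466, 0.519 and 0.582 in the Mutants. For these genes the 6 other embryos lay close together, from 0.941 to 1.40 and from 0.288 to 0.865 CPM. Myot, the Z disc protein myotilin, had 10, 6, 76 and 59 counts in the Controls and 1, 1, 0 and 8 in the Mutants, and Myoz1, a Z disc protein of fast fibres, 0, 14, 102 and 69 in the Controls and 16, 6, 15 and 11 in the Mutants. Nrap, an actin-binding protein of assembling myofibrils, reached 3.06 CPM in J6 and 1.35 CPM in J7 against 0.221 to 0.701 elsewhere. Actn3, the α-actinin of fast fibres, was present in every embryo, with 1.60, 1.57, 4.82 and 2.06 CPM in the Controls and 1.10, 1.30, 1.25 and 1.51 CPM in the Mutants, so that only J6 stood well apart. Tmod4, which caps thin filaments, did not share the pattern, with 0.609, 0.742, 1.25 and 0.810 CPM in the Controls and 0.673, 0.931, 0.519 and 1.05 in the Mutants and J7 below 2 Mutants.

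The myosin heavy chains were the group with the largest fold gap, J6 22.8-fold and J7 9.42-fold above K14J30, with 116.7 CPM in J6 and 48.2 CPM in J7 against at most 5.12 CPM in the others. Myh8 (ENSMUSG00000055775, chromosome 11 from 67277124 to 67308634), the perinatal chain, had 0.332, 0.577, 94.7 and 34.2 CPM in the Controls and 0.0961, 0.599, 1.004 and 2.56 CPM in the Mutants. Myh3 (ENSMUSG00000020908, chromosome 11 from 67078300 to 67102291), the embryonic chain, had 0.166, 0.0824, 7.36 and 13.6 CPM in the Controls and 0.240, 0.0665, 0.554 and 2.40 in the Mutants. J6 exceeded J7 for Myh8 and fell below it for Myh3, and K14J30 was the next highest in both genes. The fast adult chain Myh1 (chromosome 11 from 67200052 to 67224575) had 0.0553, 0.124, 12.4 and 0.371 CPM in the Controls and 0, 0.200, 0.104 and 0.0388 in the Mutants and was high in J6 alone. Its neighbour Myh2 had 0, 0, 40 and 3 counts in the Controls and 1, 0, 0 and 1 in the Mutants, again led by J6. Myh7, the chain of slow and cardiac muscle, had 1, 0, 2 and 0 counts in the Controls and 2, 1, 0 and 2 in the Mutants, no more than the 3 counts that an undetected gene allows.

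Myh3 and Myh8 mark the embryonic and perinatal stages on which the comparison of J6 with J7 turns, and the 250 bases before their RefSeq starts on GRCm38.p6, both on chromosome 11, are shown with CANNTG in capitals.
Myh3 (chr11:67078050-67078299, plus strand): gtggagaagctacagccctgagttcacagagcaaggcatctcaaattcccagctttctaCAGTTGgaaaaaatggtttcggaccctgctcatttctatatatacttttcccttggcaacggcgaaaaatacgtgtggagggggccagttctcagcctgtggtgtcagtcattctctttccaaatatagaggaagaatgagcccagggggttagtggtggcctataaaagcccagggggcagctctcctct
Myh8 (chr11:67276874-67277123, plus strand): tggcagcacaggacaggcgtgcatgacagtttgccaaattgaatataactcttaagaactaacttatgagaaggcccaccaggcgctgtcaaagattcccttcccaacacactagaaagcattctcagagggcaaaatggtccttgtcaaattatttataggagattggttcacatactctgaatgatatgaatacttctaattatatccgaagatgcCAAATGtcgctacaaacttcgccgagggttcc
Each window held 1 E-box, none of them CAGCTG, and 1 match to TATAAA, counted on both strands. Among the 33 windows of the muscle genes, 26 held CANNTG (78.8%), as did 17848 of all 27025, 11 (33.3%) held CAGCTG against 12.8%, and 7 (21.2%) held TATAAA on either strand against 13.0%. CAGCTG is a special case of CANNTG, and both read the same on either strand. These are matches of letters in a fixed window, and binding was not measured.

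Per kilobase of transcript, Myh8 made up 79.9% of the 7 myosin heavy chain genes counted (Myh1, Myh2, Myh3, Myh4, Myh7, Myh8 and Myh13) in J6 and 69.25% in J7. Myh3 made up 6.33% in J6 and 28.04% in J7, and the adult fast chains Myh1, Myh2 and Myh4 together 13.2% in J6 and 1.81% in J7. The 2 samples thus differed in make-up, with more of the adult fast chains in J6 and more of the embryonic chain in J7. By counts, the 95% exact intervals were 5.27% to 7.30% for Myh3 and 11.75% to 14.6% for the adult fast chains in J6 (of 2281 counts), and 25.4% to 30.05% and 1.17% to 2.61% in J7 (of 1453 counts). K14J30 was the only other embryo with enough counts for shares, 138 in all. It had 47.4% Myh8, 45.4% Myh3 (exact interval by counts 36.5% to 53.6%) and 2.92% adult fast chains. J3 and J5 had 16 and 26 counts over the 7 genes, and K14J26, K14J28 and K14J29 had 12, 29 and 49. All were under the 50 counts set for giving shares. In the share of Myh3 in Myh3 and Myh8 alone, the exact interval of K14J29 by counts was 21.9% to 51.2%. That of K14J26 was 29.04% to 96.3%, on 7 counts. Both lay above that of J6 (6.11% to 8.445%), which those of J3, J5 and K14J28 overlapped. With the length of all annotated exons in place of the principal transcript, a choice made after the data were seen, Myh3 was 10.3% in J6 and 41.85% in J7, and the adult fast chains 20.5% and 2.615%. In K14J30 this length turned the order, to 59.0% Myh3 and 32.3% Myh8, and the counts of the pair there were 62 and 66.

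**Figure D2:**
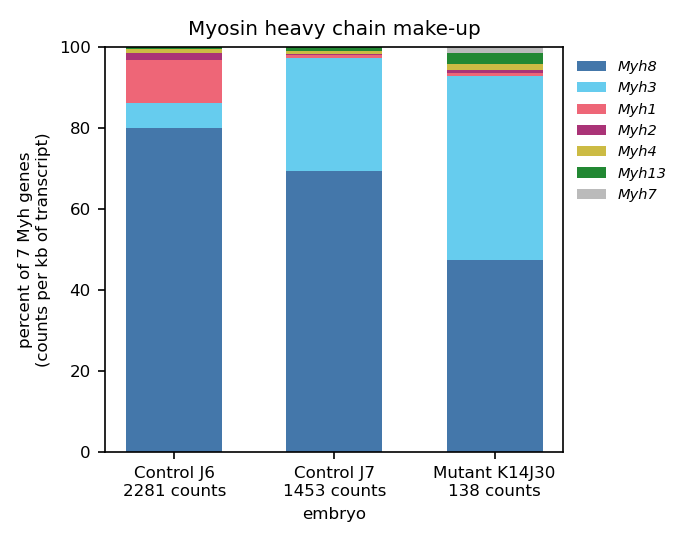
Share of each of 7 myosin heavy chain genes (percent, counts per kb of transcript) in the 3 embryos with at least 50 counts over them, Control J6, Control J7 and Mutant K14J30. Myh8 is the largest part in J6 and J7 and close to Myh3 in K14J30, Myh1 is visible in J6, and Myh3 grows from 6.33% in J6 to 28.04% in J7 and 45.4% in K14J30.

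Among the light chains J6 and J7 were the highest embryos for the fast and embryonic isoforms, and among the thick-filament genes for all but Mybpc2. Mylpf, the regulatory light chain of fast fibres, had 1.83, 4.16, 54.9 and 39.8 CPM in the Controls and 2.16, 3.33, 2.98 and 4.81 CPM in the Mutants. Myl1, the essential light chain of fast fibres, had 0.0553, 1.07, 35.5 and 20.4 CPM in the Controls and 0.528, 2.56, 1.49 and 1.44 in the Mutants. Myl4, the light chain of embryonic muscle and of the atria, had 1.22, 1.69, 6.17 and 7.66 CPM in the Controls and 0.625, 1.70, 1.94 and 2.37 in the Mutants. In Myl4 alone of these 3, J7 was above J6, and the other embryos reached 0.625 to 2.37 CPM. The slow and ventricular light chains had at most 8 counts in any embryo, with 1, 8, 2 and 1 counts in the Controls and 4, 4, 2 and 3 in the Mutants for Myl2. Myl3 had 0, 0, 4 and 1 counts in the Controls and 0, 5, 1 and 5 in the Mutants. Ttn, titin, had 0.553, 1.07, 21.6 and 16.5 CPM in the Controls and 0.432, 2.29, 1.56 and 1.94 CPM in the Mutants. Mybpc1, the slow myosin-binding protein C, had 0.443, 0.206, 13.2 and 7.22 CPM in the Controls and 0, 0.0998, 0.277 and 0.582 in the Mutants. Its fast counterpart Mybpc2 had 0.0553, 0.412, 2.80 and 0.338 CPM in the Controls and 0.144, 0.0998, 0.0693 and 0.116 in the Mutants. Mybpc1 was thus raised in J6 and J7 alike, whereas Mybpc2 was raised in J6 and in J7 lay below J5. Mybph, myosin-binding protein H, reached 0, 4, 24 and 26 counts in the Controls and 3, 3, 3 and 8 in the Mutants, and shares 1162 bases of exon with Adora1 on the other strand, which was highest in K14J26 and lowest in J7.

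The troponins, through which calcium controls the thin filament, were mostly fast isoforms in J6 and J7 and a mixture in most of the other embryos. Tnnt3, the fast troponin T, had 0.775, 1.11, 44.8 and 21.98 CPM in the Controls and 0.432, 1.60, 1.28 and 1.94 CPM in the Mutants. The fast troponin I Tnni2 had 0.387, 0.783, 26.6 and 14.96 CPM in the Controls and 0.336, 0.798, 0.727 and 1.24 in the Mutants. The fast troponin C Tnnc2 had 0.277, 0.948, 27.1 and 16.7 CPM in the Controls and 0.625, 0.998, 0.485 and 1.44 in the Mutants. In each of these genes J6 and J7 stood more than 11-fold above the highest of the others. The slow isoforms differed far less between embryos. Tnnt1, the slow troponin T, had 2.77, 1.94, 4.20 and 3.005 CPM in the Controls and 0.913, 1.93, 1.32 and 1.82 in the Mutants. Tnni1, the slow troponin I, had 0.221, 0.536, 1.76 and 3.005 CPM in the Controls and 0.865, 0.931, 0.485 and 0.621 in the Mutants. Tnnc1, the troponin C of slow and cardiac muscle, had 0.664, 0.824, 3.84 and 1.99 CPM in the Controls and 0.913, 0.266, 0.589 and 0.776 in the Mutants. The Controls and Mutants did not overlap for Tnnt1, but J5 and K14J28 were all but equal and J3 was close to J7. Tpm2, the β-tropomyosin, which smooth muscle and other cells also make, was abundant in every embryo, with 78.8, 78.9, 103 and 104 CPM in the Controls and 53.3, 82.7, 66.4 and 66.3 in the Mutants, and the lower of J6 and J7 was 1.24-fold above the highest of the others.

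Expressed as the fast share of each pair per kilobase, Tnni2 made up 95.75% of Tnni2 and Tnni1 in J6 and 88.2% in J7, Tnnt3 91.6% and 88.2% of Tnnt3 and Tnnt1, and Tnnc2 87.9% and 89.65% of Tnnc2 and Tnnc1. Mylpf made up 99.8% and 99.9% of Mylpf and Myl2. In the other 6 embryos Tnnt3 made up 22.2% to 52.0% of its pair, on 28 to 106 counts, and Tnni2 36.8% to 74.97%, on 11 to 52 counts. Tnnc2 made up 30.03% to 79.4% there, and Mylpf 92.9% to 98.04%, so the light chain pair was mostly fast in every embryo. For Tnnc2 the exact interval of K14J28 by counts (62.7% to 90.45%) overlapped those of J6 (84.7% to 90.1%) and J7 (86.5% to 91.8%). For Tnnt3 the exact intervals by counts of J6 (89.5% to 93.1%) and J7 (85.4% to 90.2%) lay above that of every other embryo, the highest of which reached 61.8% in K14J30. The fast share of troponin I was higher in J6 (91.4% to 95.65% by counts) than in J7 (79.8% to 86.3%).

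Genes of calcium handling and energy supply included some with a large and some with a small gap. Ckm, the muscle creatine kinase, had 0.498, 1.15, 39.8 and 20.2 CPM in the Controls and 0.0480, 0.831, 0.693 and 0.698 CPM in the Mutants. Atp2a1, the calcium pump of fast fibres, had 0.885, 0.948, 27.6 and 8.64 CPM in the Controls and 0.336, 0.432, 1.14 and 1.09 in the Mutants. For Ckm the lower of J6 and J7 was 17.5-fold above the highest other embryo, a larger gap than for any other of the 41 genes with over 3 counts in both J6 and J7. Mb, myoglobin, which stores oxygen in oxidative fibres, had 0.498, 0.247, 2.90 and 0.439 CPM in the Controls and 0.240, 0.366, 0.104 and 0.349 in the Mutants, and J7 lay below J3. Casq1, the calsequestrin of fast fibres, had 4.04, 4.82, 14.99 and 5.97 CPM in the Controls and 5.38, 2.83, 4.81 and 3.92 in the Mutants. Casq2, that of slow and cardiac muscle, had 2.77, 1.32, 5.65 and 5.27 CPM in the Controls and 2.88, 1.93, 3.95 and 2.91 in the Mutants. Both were present in every embryo, and J7 exceeded the highest other embryo by 1.11-fold for Casq1. Ryr1, the calcium release channel, had 2.16, 1.73, 3.21 and 3.17 CPM in the Controls and 1.25, 1.53, 1.66 and 1.32 in the Mutants. All 4 Controls lay above all 4 Mutants for this gene, as they did for Actn3 and Tnnt1 and for no other of the 41, while 11.6% of all genes tested had every Mutant below every Control.

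The myogenic regulators were scarce everywhere. Myog, myogenin, which drives the differentiation of myoblasts, had 1, 5, 12 and 41 counts in the Controls and 0, 5, 2 and 5 in the Mutants, and was highest in J7. Myod1, which commits cells to the muscle lineage, had 0, 1, 3 and 3 counts in the Controls and 0, 0, 0 and 0 in the Mutants. Myf6, which acts in late differentiation, had 0, 0, 1 and 5 counts in the Controls and 0, 0, 0 and 0 in the Mutants. Myf5, an early determination factor, had 0, 5, 4 and 6 counts in the Controls and 12, 2, 2 and 2 in the Mutants. Pax7, which marks satellite cells, had 0, 0, 1 and 2 counts in the Controls and 0, 2, 0 and 1 in the Mutants. Myog was the only regulator with at least 10 counts in both J6 and J7. Myod1 had at most 3 counts in any embryo, which a count of 0 also allows, so no difference between the groups was detectable at this depth. The highest Myf5 value was in Mutant K14J26, which had the lowest summed level of the 41 genes. The 5 regulators summed to 1.09 CPM in J6 and were 0.566 times as high there as in J7, the reverse of the order of the summed level.

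Of the 41 genes 33 were higher in J6 than in J7, and the median ratio over the 40 with counts in J7 was 1.68. The exact 95% interval of the ratio, taken on the share of J6 in the counts of both, lay above 1 for 24 genes and below 1 for 4. Highest in J6 were Myh1, 33.5-fold above J7 (interval 18.4 to 68.04), Myh2, 20.5-fold (6.52 to 104), Mybpc2, 8.29-fold (4.18 to 18.3) and Mb, 6.62-fold (3.57 to 13.2). The 4 genes higher in J7 were Tnni1 at 0.587 times its J7 level (interval 0.383 to 0.880), Myh3 at 0.543 (0.445 to 0.659), Actc1 at 0.476 (0.403 to 0.559) and Myog at 0.450 (0.215 to 0.872). The 4 highest ratios thus belonged to 2 adult fast chains, a fast thick-filament gene and myoglobin, and the 4 genes leaning to J7 were 2 developmental isoforms, a slow troponin and a differentiation factor. These ratios compare 2 samples of 1 group and carry no replicate error.

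**Figure D3:**
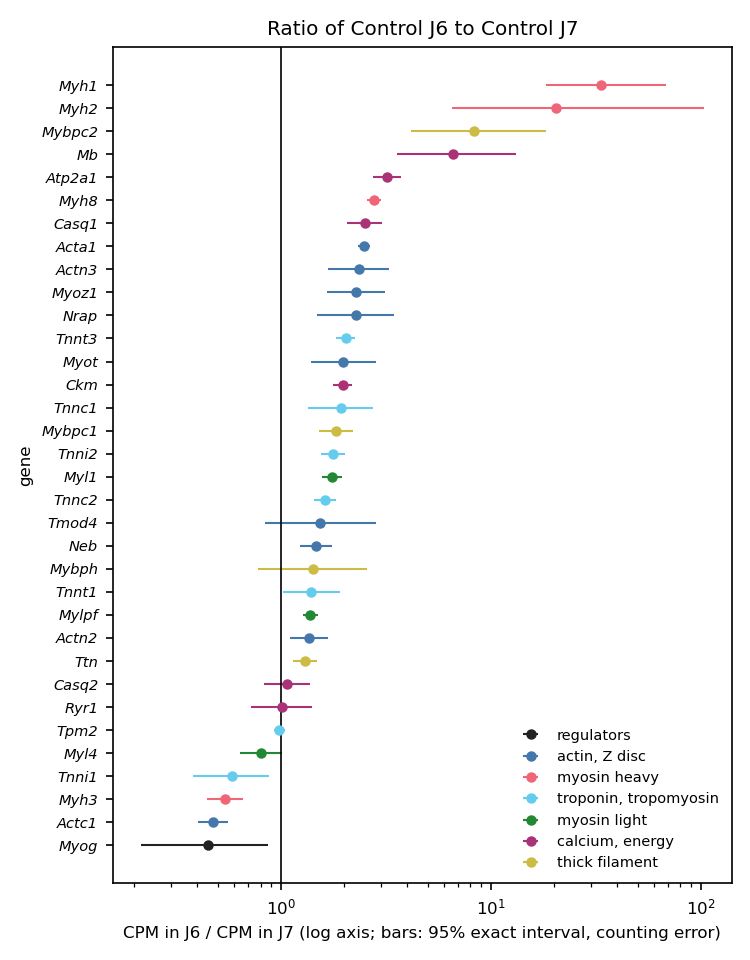
Ratio of the CPM in Control J6 to that in Control J7 for the 34 muscle genes with at least 20 counts in both together, on a log axis, coloured by role, with exact 95% intervals for counting error. Most points lie between 1 and 3, Myh1 and Myh2 lie far to the right, and Myog, Actc1, Myh3 and Tnni1 lie to the left of 1.

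Read embryo by embryo, the Control molars differed in what could be said of fibre type, stage and regulators. J3 had 16 myosin heavy chain counts and 1 count over the 5 regulators. Its fast shares per kilobase were 22.2% for Tnnt3, 30.03% for Tnnc2, 72.4% for Tnni2 and 97.5% for Mylpf, so the pairs gave no single fibre type. J5 had 26 myosin heavy chain counts and 11 regulator counts, from Myod1, Myog and Myf5. Its fast shares were 36.9% for Tnnt3, 54.2% for Tnnc2, 68.6% for Tnni2 and 93.6% for Mylpf. J6 had mostly fast troponins and light chains and mostly perinatal myosin with a visible adult part, and 21 regulator counts. J7 had mostly fast troponins and light chains and mostly perinatal myosin with a larger embryonic part, and 57 regulator counts, 41 of them from Myog. The myosin-binding protein C pair went the other way in both, with 254 counts of the slow Mybpc1 against 54 of the fast Mybpc2 in J6, and 214 against 10 in J7.

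Some genes outside the list also differed between J6 and J7, and those given here were picked after their values were seen. The parvalbumin gene Pvalb, which buffers calcium in the fastest fibres, had 0, 0, 57 and 5 counts in the Controls and 0, 0, 0 and 0 in the Mutants. Xirp2 had 0, 1, 71 and 14 counts in the Controls and 2, 0, 1 and 3 in the Mutants and Ckmt2, the mitochondrial creatine kinase of sarcomeres, 3, 4, 48 and 15 in the Controls and 7, 7, 19 and 9 in the Mutants, again led by J6. Mymx, a fusion protein of myoblasts, had 0, 0, 0 and 16 counts in the Controls and 1, 1, 0 and 2 in the Mutants, and Chrng, the fetal subunit of the acetylcholine receptor, 0, 0, 1 and 8 in the Controls and 0, 1, 2 and 1 in the Mutants, both highest in J7. The interval of the ratio of J6 to J7 for Chrng, 0.00433 to 1.43, included 1. So did those of the fusion gene Mymk, with 10 and 19 counts in J6 and J7 (0.336 to 1.83), and of the receptor subunit gene Chrna1 (0.292 to 1.18). The receptor subunit gene Chrnd was 0.256 times as high in J6 as in J7 (interval 0.0483 to 0.877), whereas Rapsn, which clusters the receptor, was 2.30-fold higher in J6 (1.05 to 5.24).

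Developmental shares by counts could be compared between the embryos with enough counts of a pair. Myh3 made up 7.21% of Myh3 and Myh8 in J6 (exact interval 6.11% to 8.445%), 28.4% in J7 (26.1% to 30.9%), and 48.4% in K14J30 (39.5% to 57.4%). In the other 5 embryos the pair had 7 to 45 counts, and the interval was 21.9% to 51.2% in K14J29, the deepest of them, and wider still in J3, J5, K14J26 and K14J28. Actc1 made up 7.24% of the 2 sarcomeric actins in J6 (6.29% to 8.28%), 28.9% in J7 (27.1% to 30.9%), 32.1% in K14J30 (25.5% to 39.25%) and 15.7% in K14J29 (9.445% to 24.0%). For both shares J7 and K14J30 were several times above J6. J5 and K14J28 had 8.05% and 7.81% Actc1, close to J6, on 149 and 128 counts. Myl4, another developmental isoform, made up 14.8% of Myl4 and Myl1 in J6 (12.4% to 17.5%) and 27.3% in J7 (24.3% to 30.5%), but 39.8% to 95.7% in the others, where its own level was 0.625 to 2.37 CPM.

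**Figure D4:**
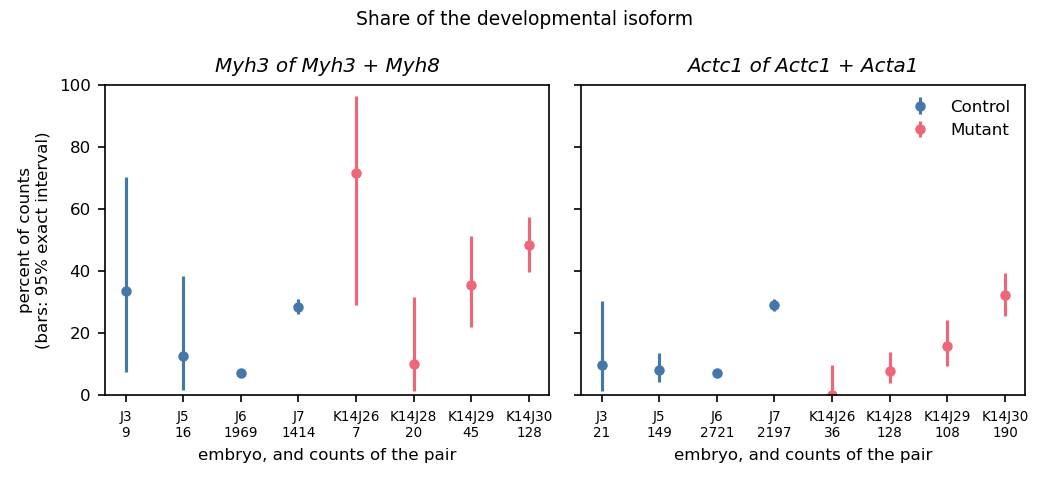
Percent of counts on the developmental isoform in each embryo, Myh3 of Myh3 and Myh8 (left) and Actc1 of Actc1 and Acta1 (right), with exact 95% intervals and the counts of each pair under the embryo's name. J6 is near 7% in both panels, J7 near 29%, K14J30 at 48.4% and 32.1%, and the intervals of embryos with few counts are wide.

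The comparison of the groups, which asks how loss of Jagged1 from the epithelium changes the molar transcriptome, was fitted on all 17129 genes tested with edgeR's quasi-likelihood test. Of the 41 muscle genes 33 entered it, 26 of which also passed the count filter in the Mutants and 7 only in the Controls. The 8 left out for low counts were Myh2, Myh7, Myl2, Myl3, Myod1, Myf5, Myf6 and Pax7. The study's criteria were a p of 0.05 or less and a fold change of 0.5 or more, which was read here as a log2 ratio of 0.5 or more in either direction. By them 24 were lower in the Mutants and 0 higher, where 5.85% of all genes were called lower and 8.33% higher. At an adjusted p under 0.05, 5 were lower and 0 higher, against 6.61% and 9.52% of all genes. DESeq2 called 17 lower at an adjusted p under 0.05 and 24 by the criteria, and 0 higher by either rule, where it called 1718 of all genes lower and 2244 higher at an adjusted p under 0.05 against 1133 and 1631 in edgeR. Of the 24 lower by the criteria 18 also passed the count filter in the Mutants. The other 6 entered the fit only through the Controls, as did Myot and Mybpc1 among the 5. The 9 tested genes that missed the criteria were Myoz1, Tmod4, Myh3, Myl4, Mybph, Tnni1, Tpm2, Casq1 and Casq2. The 5 past the adjusted threshold were Myot, Mybpc1, Ckm, Ryr1 and Atp2a1, with log2 fold changes of -4.06 (standard error 1.06), -4.40 (1.29), -4.69 (1.28), -0.83 (0.24) and -3.64 (1.08) and adjusted p of 0.0337, 0.0474, 0.0382, 0.0448 and 0.0492. All 33 log2 fold changes were below 0, from -5.03 for Myh1 to -0.10 for Tmod4, with a median of -2.65. The muscle list was chosen with this contrast known, so nothing is read from these counts. Standard errors were large, for example 1.15 for Acta1 (log2 fold change -3.77, adjusted p = 0.0533) and 1.54 for Myh8 (-4.90, adjusted p = 0.0580).

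Muscle genes were also counted among all genes that were lower. Of the 1002 genes lower by the criteria 24 were muscle genes of the list and 32 further muscle genes. Of the 78 with a log2 fold change of -2 or below they were 18 and 15. Of the 17129 genes tested they were 33 and 81. Among the 18, Myot, Myh1, Mybpc1, Mybpc2 and Myog passed the count filter only in the Controls, where they were high. Both lists were chosen with earlier results of these data known, so nothing is read from these counts.

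With J6 and J7 left out, the 4 Mutants were compared with the 2 Controls J3 and J5 on the same 17129 genes. J6 and J7 were already known to be highest in most muscle genes, so losing lower calls was built into this choice. Nothing is therefore read from that loss. Myh1, with 1 and 3 counts in J3 and J5, stayed in only because the filter had counted J6 and J7. None of the 33 muscle genes was then called in either direction, with 0 at a p under 0.05 before adjustment in edgeR's test over all genes, an approximate rather than an exact test. The smallest p was 0.0985, for Myot (log2 fold change -1.97). The median log2 fold change of the 33 was 0.14, with 14 below and 19 above 0, while the median of all genes tested was 0.0058 with and 0.0053 without J6 and J7. Ckm moved from -4.69 to -0.53 (standard error 0.74), Acta1 from -3.77 to 0.03 (0.63), Myh8 from -4.90 to 1.21 (1.03) and Myh3 from -2.71 to 2.72 (1.54). Next to Myot, the lowest values were those of Mybpc2 (-1.21 ± 0.75) and Tnnt1 (-0.64 ± 0.35), and Ryr1 was at -0.42 ± 0.25. In this smaller fit 4 of all genes were lower and 3 higher at an adjusted p under 0.05 (0.0234% and 0.0175%), and 4.05% were lower and 6.48% higher by the criteria. With J6 alone left out 14 muscle genes were lower by the criteria and 0 at an adjusted p under 0.05, and with J7 alone left out 17 and 0. Over all genes the lower calls fell as well, from 1133 at an adjusted p under 0.05 to 534 without J6 and 211 without J7, and by the criteria from 1002 to 962 and 776.

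**Figure D5:**
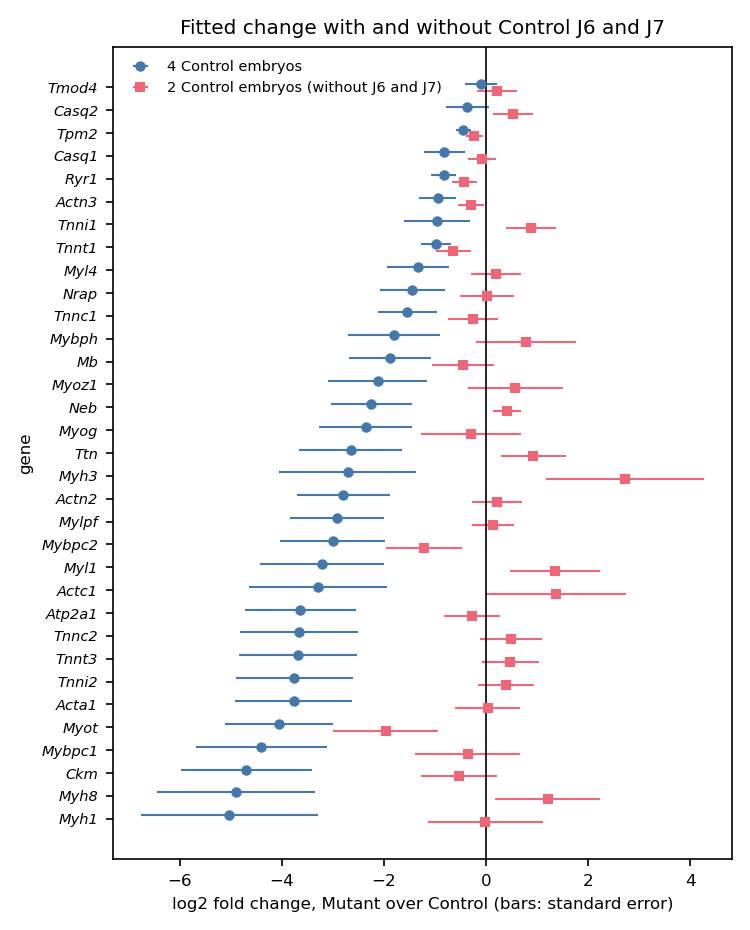
Fitted log2 fold change, Mutant over Control, with its standard error for the 33 muscle genes tested, from all 4 Control embryos (blue circles) and from J3 and J5 only (red squares). All blue points lie below 0, and the red points lie on both sides of 0, 14 below and 19 above.

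Another 96 genes of muscle, from lists of sarcomere, excitation-contraction, metabolic, neuromuscular junction and myoblast genes, were examined beside the 41, and 81 of them were tested. By the criteria 32 were lower and 4 higher in the Mutants, where 5.85% of all genes were lower and 8.33% higher. At an adjusted p under 0.05 in edgeR's test, 8 were lower and 4 higher, against 6.61% and 9.52% of all genes. Their median log2 fold change was -0.75. J6 and J7 were the 2 highest embryos for 43 of the 81, against 4.90% of all genes tested. By list, where 5.85% of all genes were lower by the criteria, 13 of 27 sarcomere genes were lower, 8 of 22 excitation-contraction genes, 4 of 13 metabolic genes, 3 of 6 junction genes and 5 of 14 myoblast genes, Des being counted in 2 lists. Des, desmin, the intermediate filament of muscle, had 1.88, 2.76, 18.51 and 9.01 CPM in the Controls and 1.68, 2.69, 1.59 and 2.33 CPM in the Mutants. Eno3, the muscle enolase, had 14.4, 13.6, 28.9 and 21.6 CPM in the Controls and 14.7, 13.2, 12.02 and 15.1 in the Mutants. Both were highest in J6 and J7. Tpm1, Atp2a2 and Mef2c, abundant genes that many other cells also make, were not. Tpm1 had 1141, 1206, 1027 and 1118 CPM in the Controls and 1006, 1077, 1043 and 934 in the Mutants. Atp2a2, the calcium pump of slow muscle and most other cells, had 295, 321, 329 and 344 CPM in the Controls and 498, 333, 372 and 340.2 in the Mutants. The myogenic cofactor Mef2c had 52.9, 61.4, 63.8 and 63.2 CPM in the Controls and 49.3, 73.1, 58.8 and 60.9 in the Mutants. Myom1, an M-band protein, had 4.54, 4.86, 9.64 and 9.08 CPM in the Controls and 5.14, 7.82, 4.33 and 3.61 in the Mutants, with J6 and J7 highest and K14J28 next. Of the other abundant genes of these lists, the log2 fold changes were -0.20 for Tpm3, -0.14 for Fkbp1a, -0.21 for Asph, -0.14 for Bin1, 0.16 for Pfkm and 0.11 for Mef2d. At the neuromuscular junction they were -0.28 for Chrnb1, -1.20 for Colq and -0.56 for Ache.

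Without J6 and J7, 7 of these 81 genes were lower by the criteria, 6 of which had also been lower with all embryos, and the median was -0.16. In the same fit 6 were higher, Mypn, Stac3, Dysf, Sgca, Pgam2 and Ak1, where 4.05% of all genes were lower and 6.48% higher. The 7 lower genes were Tbx1 (-0.82 ± 0.12), Clcn1 (-1.32), Vgll2 (-1.15), Six4 (-0.76), Rapsn (-1.10), Myh13 (-1.70) and Cacna1s (-0.51), of which all but Tbx1 and Rapsn are named after their values were seen. By edgeR 0 had an adjusted p under 0.05 in that fit. Tbx1, a transcription factor of pharyngeal and dental epithelium as well as of head muscle, had 106, 121, 104 and 104 CPM in the Controls and 67.02, 70.8, 54.3 and 64.7 CPM in the Mutants, with an adjusted p of 0.00517 from all 8 embryos, and J6 and J7 were below J3 and J5 in it. Genes of these lists that were higher in the Mutants included Ak1, adenylate kinase, with 12.8, 15.2, 19.03 and 15.1 CPM in the Controls and 59.6, 25.9, 40.6 and 29.6 in the Mutants (log2 fold change 1.32 ± 0.25), Mypn (2.83 ± 0.56) and Stac3 (2.58 ± 0.59), with adjusted p of 0.0152, 0.0168 and 0.0237. The last pair was chosen after the values were seen, and both peaked in K14J26, which had the lowest summed muscle level. Pgam2, the muscle phosphoglycerate mutase, had 4.54, 4.57, 11.6 and 7.83 CPM in the Controls and 14.6, 7.51, 15.2 and 9.85 in the Mutants, with 2 Mutants above J6.

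Across all genes, the pattern of the list was measured as the lower of J6 and J7 over the highest of the other 6 embryos, with 0.5 CPM added to both. This ratio was at least 2 for 38 genes, of which 18 were among the 41 and 12 among the further muscle genes, and at least 4 for 14 genes, of which 13 were among the 41. The remaining 1 was Atp1b4, a muscle protein related to the β subunits of the sodium pump, with 0, 0.0412, 6.07 and 4.56 CPM in the Controls and 0, 0.166, 0.139 and 0.310 CPM in the Mutants and a ratio of 6.24. The next genes outside the list were Csrp3, the muscle LIM protein (3.95), Smpx (3.45), Sln, sarcolipin (3.43), Cox6a2, a muscle subunit of cytochrome oxidase (3.39), Tceal7 (3.33), Des (2.92), Myom2 (2.74), Trdn, triadin (2.73), and Apobec2 (2.72). Csrp3 had 0.111, 0.371, 5.600 and 2.94 CPM in the Controls and 0.0961, 0.233, 0.208 and 0.116 in the Mutants.

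Markers of neighbouring tissues were summed in the same way, and of these lists the cardiac and endothelial sums were highest in J6 and J7. The summed level of 12 bone markers ran from 4997 to 7792 CPM in the Controls and from 7178 to 18410 CPM in the Mutants, that of 12 cartilage markers from 321.1 to 451.4 and from 389.2 to 1251 CPM, and that of 8 tendon markers from 444.6 to 507.2 and from 532.7 to 725.2 CPM. J6 and J7 were the 2 highest for 0 of 12 bone, 2 of 10 cartilage and 3 of 8 tendon genes tested, the last being Scx, Tnmd and Kera. Of 8 cardiac markers Nppa and Nkx2-5 had 0 counts in every embryo, and the sum was 8.35 CPM in J6 and 8.85 CPM in J7 against 3.89 to 6.09 CPM elsewhere. The 2 cardiac markers that were highest in J6 and J7 were Sln, which skeletal muscle also makes, and Tnni3. The sum of 9 smooth muscle and pericyte markers was 468.1 CPM in J6 and 552.6 CPM in J7, inside the range of 363.0 to 561.4 CPM of the Mutants. Acta2, smooth muscle actin, was 156 CPM in J6, the lowest of the Controls. The 10 dental mesenchyme markers summed to 2417 CPM in J6 and 1294 CPM in J7. Their sum ran from 1238 to 2417 CPM in the Controls and from 2575 to 7364 CPM in the Mutants. That of 12 oral epithelium and skin markers ran from 3464 to 4297 and from 4865 to 6586 CPM. The groups did not overlap in either sum. Most of the 10 dental mesenchyme genes did not follow their sum. By the criteria 5 were lower in the Mutants and 1 higher, with a median log2 fold change of -0.39. Of all genes tested 5.85% were lower and 8.33% higher. The endothelial sum was highest in J7 (454.5 CPM) and J6 (425.1 CPM), against 335.8 to 411.4 CPM elsewhere, with J6 and J7 the 2 highest for 2 of the 10 genes tested. They were the 2 highest for 1 of 11 nerve and glia genes, 0 of 7 red cell genes, 0 of 12 skin genes and not for the 1 adipocyte gene tested. The part of these tissues in the muscle values was not tested.

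Some values rest on reads that could belong to a second gene. Acta1 and Actc1 are near-identical in coding sequence to each other and to Acta2 and Actg2, and Myh1, Myh2, Myh3 and Myh8 lie side by side on chromosome 11 with close copies of one another, so counts could be split among them. The libraries were made with a kit that does not mark strand, and genes that overlap on opposite strands cannot be told apart in them. Exons of Tnnc2 share 592 bases with Ube2c, which had 23.7 to 97.7 CPM and was highest in J3, and those of Atp2a1 share 763 bases with Rabep2, which was highest in K14J26. Ckm shares 451 bases with the antisense gene A930016O22Rik. That gene had 0, 1, 20 and 24 counts in the Controls and 1, 1, 1 and 3 in the Mutants, so J6 and J7 led it as they did Ckm.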

How the data were processed

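Poly-A RNA of the lower first molars of 4 Control and 4 Mutant embryos was sequenced by the authors on unstranded single-end libraries. Per the labels and the study's methods, they aligned the reads with STAR to GRCm38 (GRCm38.p3 in the processing notes), and the deposited files give the count of reads per Ensembl gene for each embryo, without normalization. The processing notes name featureCounts and the methods GenomicRanges for the counting. The treatment of reads with several matches, the strand setting and the Ensembl release are not given in the sources used here.

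Symbols, positions and transcript lengths were taken from GENCODE M21, which holds 42548 of the 43629 identifiers, and promoter windows from RefSeq (GRCm38.p6), which had 33 of the 41 genes, with the first start listed per gene. The 41 genes and all other lists were chosen with earlier results of these data known. The 17129 genes with 10 or more counts in 2 embryos of a group entered the fit. After TMM scaling, edgeR 4.0.16 (R 4.3.3) gave quasi-likelihood F tests over all 8 embryos, with no covariates and Benjamini-Hochberg adjustment. Standard errors are the size of the log2 fold change over the root of F. Fits that leave out embryos kept the same genes. The code was tested on simulated data.

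Shares per kilobase divide counts by the length of the principal transcript. Intervals are exact (Clopper-Pearson, 95%) and cover counting error only, because they are taken on read counts and not on replicate embryos. The reads carry no molecular identifiers, so copies of 1 molecule could be counted as separate reads. The embryos of a group are separate animals, and all 12 pairs of embryos differed by more than sampling noise (chi-square per degree of freedom 7.17 or more), so none was merged. All 41 genes were named. Of the further lists, the 4 genes per list with the highest level in J6 were eligible to be named, and of all other genes the 10 with the pattern most like J6 and J7. Others are named where the text says so. A single one of the eligible genes is not reported here. Alternatives tried were DESeq2 1.42.0, other scalings and filters, and leaving out embryos.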

Additional observations from a re-analysis of the deposited data

Results flagged for a closer look

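Within each group of 4 embryos, the highest or lowest value was called far from the others by its gap to the nearest. The gap had to pass Dixon's 95% critical value for 4 samples, which chance alone gives in about 1 in 20 groups. The muscle list was drawn up with the high J6 and J7 values known, so the number of flags was not set against this rate. The muscle genes with at least 10 counts in some embryo and the summed level were examined, 36 values in 72 groups, and 8 values stood apart, 6 in Controls and 2 in Mutants. In J6 these were Myh1 at 12.4 CPM (other Controls 0.0553 to 0.371), Actn3 at 4.82 (1.57 to 2.06), Mb at 2.90 (0.247 to 0.498), Mybpc2 at 2.80 (0.0553 to 0.412) and Myh2 at 2.07 CPM (0 to 0.101). Of these 5, Myh1, Myh2, Actn3 and Mybpc2 are fast-fibre genes. Myf5 stood apart in J3, with 0 CPM against 0.203 to 0.207 in the other Controls (0 counts against 4 to 6, a gap close to the 0.166 CPM that a count of 0 allows in J3), and in K14J26, with 0.5765 CPM against 0.0665 to 0.0776 in the other Mutants. Myot stood apart in K14J30, with 0.310 CPM against 0 to 0.0480 in the other Mutants, on 8 counts.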

How the results depend on the processing

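No analysis paired by litter was possible because the litter of each embryo is not given in the sources used here. J6 and J7 were already known to be highest in most muscle genes. Leaving both out took the muscle genes' median above 0. It moved to a log2 fold change of 0.14, 0 muscle genes were lower by the criteria or at an adjusted p under 0.05, and the further muscle genes lower fell to 7 and 0, with 0 higher at an adjusted p under 0.05. Over all genes 4 were then lower and 3 higher at an adjusted p under 0.05. The log2 fold changes of 19 muscle genes were then above 0: Myh3 2.72, Actc1 1.37, Myl1 1.35, Myh8 1.21, Ttn 0.93, Tnni1 0.88, Mybph 0.79, Myoz1 0.58, Casq2 0.53, Tnnc2 0.49, Tnnt3 0.48, Neb 0.41, Tnni2 0.39, Tmod4 0.22, Actn2 0.21, Myl4 0.19, Mylpf 0.14, Acta1 0.0293 and Nrap 0.0212. The standard errors were 1.54 for Myh3, 1.37 for Actc1, 0.88 for Myl1 and 1.03 for Myh8, and the smallest p of any muscle gene in edgeR's test was 0.0985. Myh3 had 3 and 2 counts in J3 and J5, and 62 in K14J30. With 1 embryo left out at a time, the log2 fold change of Tmod4 ran from -0.2566 to 0.13, and was positive without J6 (0.13) or K14J29 (0.07).

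In the same fits the muscle genes lower by the criteria ran from 14 (without J6) to 31 and those at an adjusted p under 0.05 from 0 (without J6, J7 or K14J29) to 5, with 3 without J3, 2 without K14J26 and 1 without K14J30. Their median ran from -3.04 to -1.54 (without J6). The further muscle genes lower ran from 18 (without J6) to 38 and from 2 to 11, and those higher at an adjusted p under 0.05 from 0 to 5. Over all genes the lower calls at an adjusted p under 0.05 ran from 160 to 1845 and the higher calls from 237 to 2454, and the lower calls by the criteria from 776 to 1385. DESeq2 called 17 muscle genes, 22 further muscle genes and 1718 of all genes lower at an adjusted p under 0.05. With no filter, 10 muscle genes and 858 of all genes were lower at an adjusted p under 0.05. With at least 20 counts in all 4 embryos of a group, 6 muscle genes were lower by the criteria and 3 at an adjusted p under 0.05 (median -0.97), as were 12 and 5 further genes and 781 and 1263 of all genes. By library size alone 864 of all genes were higher at an adjusted p under 0.05, against 1631 with TMM scaling. By the criteria they were 1033 against 1426. The filter sets how many genes enter, and the cause of the other shifts was not tested.

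Without Acta1, Actc1 and Tpm2, the summed level in J6 was 12.05-fold and in J7 6.62-fold above the highest other embryo, and 1.82-fold higher in J6 than in J7. Without division by length, Tnni2 was 83.3% of its pair in J7. With the length of all annotated exons, chosen after the data were seen, Myh3 was 10.3% in J6, 41.85% in J7 and 59.0% in K14J30, Myh8 68.3%, 54.2% and 32.3%, and the adult fast chains 20.5% in J6 and 2.615% in J7. Depth limits the regulators and the myosin shares outside J6, J7 and K14J30.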
